A study of Homo sapiens with 14 samples.

Results

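The promoters described here are those of the general transcription factor genes, chosen by gene symbol alone. Members are the protein-coding genes of the hg38 annotation whose symbol is TAF followed by a digit, begins with GTF2 or GTF3, or is TBP, BRF1, BRF2 or BDP1. This gives 66 of the 20046 protein-coding genes. A peak was taken as a promoter peak of a member if its midpoint fell in the window that opens 2 kb before and closes 1 kb after any annotated transcription start site (TSS). When overlapping peaks of the available lists were merged, 55 of 40687 regions lay at a member promoter.

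ZNF143 is a zinc finger protein that binds promoters. ChIP-seq was performed with a polyclonal anti-ZNF143 antibody from Proteintech in HEK293T, an established line derived from human embryonic kidney. The study describes this antibody as also recognising CTCF, so a peak of these lists, a CTCF match or a call with dTAG-V1 need not reflect ZNF143. The cells were 1 clone, HEK_CloneZD29, in which the endogenous ZNF143 carries an FKBP12F36V tag, so that all samples share the tagged protein and differ in the treatment. Of the 14 samples of the series, 4 were untreated and 4 were treated for 30 min with 0.5 µM dTAG-V1, which recruits the tagged protein to the degradation machinery. The remaining 6 samples are CTCF ChIP-seq and are not analysed here. Peaks of the untreated list carry DMSO in their names, whereas the sample labels describe untreated cells, and the labels are followed.

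For each condition 1 list of peaks was available, with 20429 peaks for untreated and 35287 for dTAG-V1. The lists hold no value per replicate and no read count, so the depth is unknown and no difference between conditions could be tested. A peak near the calling threshold can be missed in 1 list without any change in binding, and the dTAG-V1 list is the longer. The score of a peak is derived from its q-value, and fold enrichment compares the signal at its highest point, the summit, with the local background. Because each list has its own scale, a peak is described by its rank or percentile within its own list. A difference in rank between lists is not a difference in signal. Distances are from the summit of the untreated peak, or of the dTAG-V1 peak where the untreated list has none. Where a distance involves a motif site, it is taken at the middle of the site. Shares are given with 95% Wilson intervals, which cover counting error only.

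General transcription factors assemble with RNA polymerase at the start of genes. For RNA polymerase II, TFIID (TBP and its associated factors, the TAFs) recognises the core promoter, TFIIA and TFIIB stabilise this complex, TFIIF escorts the polymerase, and TFIIE and TFIIH open the DNA and phosphorylate the polymerase. SL1 is the TBP complex of RNA polymerase I, whereas TFIIIA, TFIIIB and TFIIIC serve RNA polymerase III. Some symbols caught by the rule belong to other proteins. TAF15 is an RNA-binding protein of the FET family, GTF2I and its relatives are TFII-I proteins, and the TAF11-like genes are relatives of TAF11, many of them near-identical to each other.

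The sequences under the highest member peaks are shown because the SBS motif, the long element recognised by the zinc fingers of ZNF143, stood in each of these regions. It was searched with 2 matrices, SBS1 and SBS2, both learned from peaks of these lists. SBS2 adds a short stretch reading ACTACA in front of the core that it shares with SBS1. The best SBS site of the 10 member regions with the highest untreated score that hold a site is printed from hg38 in the orientation of the motif, with the site in capitals and 5 bases on either side in lower case.
GTF2H4: tccaaTTCCCAGCATCCCCCGCGcccgg
GTF2I: cgtggACTACAACTCCCAGGAAGCaccgc
GTF2E1: tgaagACTACACTTCCCAGGGGACtttgc
BDP1: ccctcCTCCCAGCATCCCCGCGCtcaca
TAF6: cctgaACTACAATTCCCACAATCCattgg
TAF12: gcacaTTCCCAGCAAGCCCTGAGtatat
GTF3C2: tgcaaCTCCCATGAGGCCCTGCAgcgtc
TAF8: ccgcgACTACAAGTCCCATCGCGCcccgc
GTF2F1: cttccCACCCAGGATGCCCCACGgtcct
TAF1: cctgtACCACAATACCCGGAAGTAagggt

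The GTF2H4 stretch lies at chr6:30908142-30908169 on the plus strand, and that of GTF2I at chr7:74657528-74657556 on the minus strand, in an intron of another GTF2I transcript. The GTF2E1 site is at chr3:120742310-120742338 (minus), within an intron of the divergent gene RABL3. The BDP1 stretch is at chr5:71455628-71455655 (minus) and that of TAF6 at chr7:100120096-100120124 (minus), in the first exon of the neighbouring CNPY4. TAF12 is represented by chr1:28648355-28648382 (plus), in an exon of the divergent transcript TAF12-DT. The GTF3C2 and TAF8 sites, at chr2:27356994-27357021 (minus) and chr6:42050487-42050515 (plus), end within 20 bp of a TSS. GTF2F1 has its site in an intron at chr19:6393462-6393489 (minus), and TAF1 has its site upstream of the gene at chrX:71365906-71365934 (minus). GTF2I, GTF2E1, TAF6, TAF8 and TAF1 matched SBS2 best, and the other 5 matched SBS1 best.

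The strongest member promoter was that of GTF2H4, which encodes a core subunit of TFIIH. Its peak, chr6:30907818-30908455, ranked 4 of 20429 untreated and 19 of 35287 with dTAG-V1. Its fold enrichment was 39.2 untreated and 37.3 with dTAG-V1. The 150 bases before its TSS, chr6:30908057-30908206 on the plus strand, hold SBS letters (capitals) in 2 separate stretches.
GTF2H4 upstream: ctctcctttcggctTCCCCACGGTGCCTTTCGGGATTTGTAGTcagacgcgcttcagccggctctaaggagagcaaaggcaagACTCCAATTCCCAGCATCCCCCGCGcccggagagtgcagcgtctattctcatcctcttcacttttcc
The stretch farther from the TSS matched SBS2 on the opposite strand and, overlapping it, SBS1 on the same strand. The summits of the untreated and the dTAG-V1 peak, 7 bp apart, both fell inside that SBS2 match. The nearer stretch matched SBS1 with a match probability of 1.2e-11 (the chance of so high a matrix score at a random position), the best match at any member promoter, 64 bp from the untreated summit. The stretch carries no annotated exon.

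In the untreated list, 39 of the 66 genes had a promoter peak (59.1%, interval 47.0 to 70.1), against 40.4% of all protein-coding genes. In the dTAG-V1 list 44 did (66.7%, 54.7 to 76.8), against 48.1%. The same 39 genes had peaks in both lists, a class that holds 37.0% of protein-coding genes. This class needs a promoter peak in each list, and the peaks need not overlap, as at TAF4B. No member had a peak in the untreated list only (0 of 66, interval up to 5.50%), where 3.35% of protein-coding genes fall. A promoter peak in the dTAG-V1 list only was seen for 5 genes (7.58%, background 11.0%), namely TAF1B, TAF4, TAF7L, GTF2A2 and GTF3A. The other 22 genes had none (33.3%, background 48.6%), and 13 of these are TAF11-like genes. Without the TAF11-like genes, 39 of 53 genes (73.6%, 60.4 to 83.6) had peaks in both lists. These shares are descriptions of the lists. No test was made, and the members are not a random draw of genes.

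**Figure D1:**
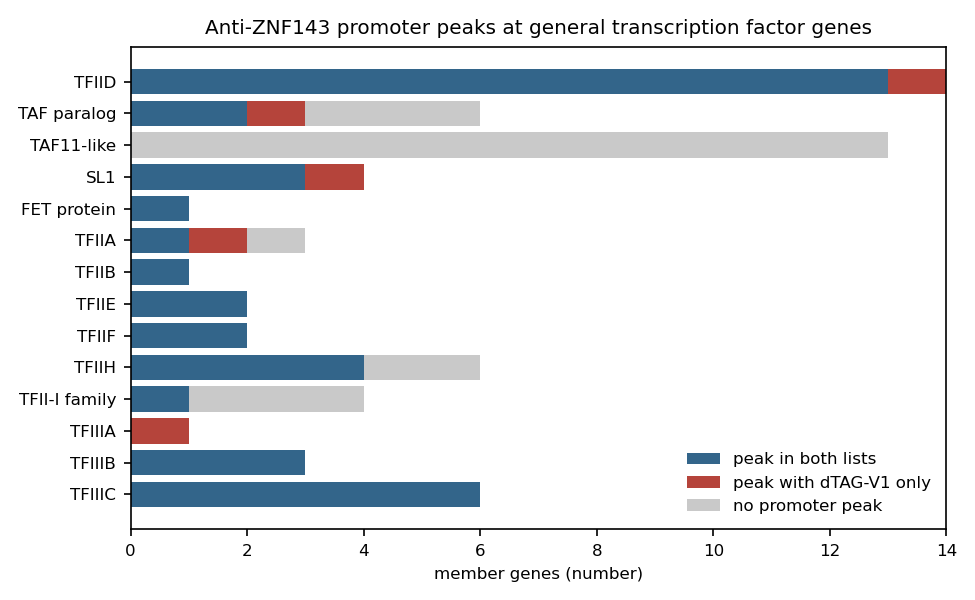
Number of member genes (horizontal axis) in each factor (vertical axis) with a promoter peak in both lists, with dTAG-V1 only, or with none. All 6 TFIIIC genes and 13 of 14 TFIID genes have peaks in both lists, whereas the 13 TAF11-like genes have none. Of all protein-coding genes, 37.0% have peaks in both lists and 48.6% have none.

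Counts by factor are small and use any annotated TSS. All 14 TFIID genes had a promoter peak, which 48.6% of protein-coding genes lacked. Of the 14, 13 had one in both lists, as did 37.0% of protein-coding genes. The exception was TAF4, a scaffold TAF, whose peak was found with dTAG-V1 only and at an internal start. All 6 TFIIIC genes (GTF3C1 to GTF3C6) and all 3 TFIIIB genes (BRF1, BRF2 and BDP1) were in both lists. So were GTF2B, which encodes TFIIB, both TFIIE genes, both TFIIF genes, and 4 of the 6 TFIIH genes matched by the rule (GTF2H1, GTF2H3, GTF2H4 and GTF2H5). Of the SL1 genes, TAF1A, TAF1C and TAF1D were in both lists and TAF1B in the dTAG-V1 list only. GTF2A1, the large subunit of TFIIA, was in both lists, and GTF2A2, the small one, in the dTAG-V1 list only. GTF2I was the only member of its family with a peak, and TAF15 was in both lists.

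Of the 6 genes for variants of TFIID subunits, 3 had a promoter peak. TAF4B and TAF6L had peaks in both lists (at TAF4B none of them overlapped), and TAF7L in the dTAG-V1 list only. TAF1L, TAF5L and TAF9B had none. The other genes without a peak were GTF2A1L, GTF2H2, GTF2H2C, GTF2IRD1, GTF2IRD2, GTF2IRD2B and TAF11L2 to TAF11L14. A window of about 1 kb around the main TSS of each member was aligned to hg38 to count near-identical places, with at least 90% of the window at 97% identity. Of the 22 genes without a peak, 13 had more than 1 such place, and of the 44 genes with a peak none did. Only member windows were aligned, so no share over all protein-coding genes stands beside these counts. The 13 genes are copies within a few families and are not independent of each other. The window of 9 TAF11-like genes had 9 places each, those of GTF2H2 and GTF2H2C 3 each, and those of GTF2IRD2 and GTF2IRD2B 2 each. According to the methods only uniquely mapped reads were kept, so a peak at such a copy could be missed, and its share in these absences was not tested. GTF2A1L, GTF2IRD1, TAF1L, TAF5L, TAF9B, TAF11L2, TAF11L11, TAF11L12 and TAF11L14 each had 1 place.

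Genes of the same machinery that the rule does not take were counted for comparison. The remaining TFIIH subunits are CCNH, CDK7, MNAT1, ERCC2 and ERCC3. CCNH, CDK7 and MNAT1, the kinase module, had promoter peaks in both lists, and the helicases ERCC2 and ERCC3 had them with dTAG-V1 only. Of 34 RNA polymerase subunit genes, 23 had peaks in both lists (67.6%, 50.8 to 80.9), 4 with dTAG-V1 only and 7 none. Of 33 Mediator genes, 26 were in both lists (78.8%, 62.2 to 89.3), 4 in the untreated list only, 2 with dTAG-V1 only, and 1 in neither. The intervals of these groups overlap that of the general transcription factors.

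**Figure D2:**
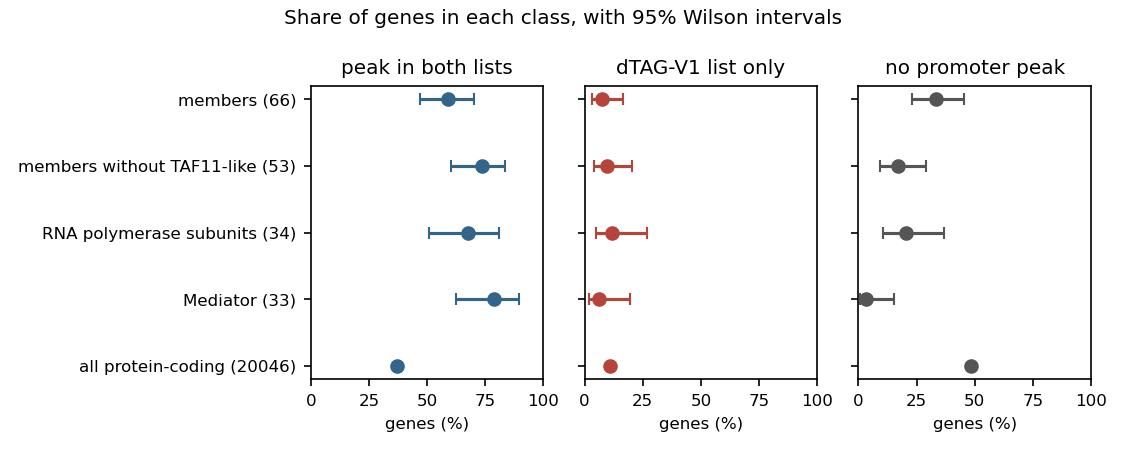
Percent of genes (horizontal axis) with a promoter peak in both lists, in the dTAG-V1 list only, or in neither, for 5 gene sets with their size in brackets. Points are shares and bars 95% Wilson intervals, and the members stand at 59.1% in both lists beside 37.0% of all protein-coding genes.

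At the level of regions, 42 of the 55 member regions had peaks of both lists, 3 of the untreated list only and 10 of the dTAG-V1 list only. Of the 45 untreated member peaks, 42 overlapped a dTAG-V1 peak (93.3%, 82.1 to 97.7), against 84.2% of all untreated promoter peaks and 73.2% of all untreated peaks. Of the 52 dTAG-V1 member peaks, 42 overlapped an untreated peak (80.8%, 68.1 to 89.2), against 62.6% of dTAG-V1 promoter peaks. The untreated member peaks had a median score percentile of 68.5, and all untreated promoter peaks 62.2. For dTAG-V1 these medians were 72.5 and 52.8. Of the 45 untreated member peaks, 9 were among the highest-scoring 10% of the list, a share near the 20.6% of all untreated promoter peaks.

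After GTF2H4, the highest untreated score was at GTF2I, whose product TFII-I binds both core promoters and upstream elements. Its peak at chr7:74657262-74657806 ranked 340 untreated, with a fold enrichment of 35.1, and 577 with dTAG-V1, with a fold of 25.0. The untreated summit lay 70 bp upstream of a TSS and 55 bp from the SBS site (match probability 4.3e-09). At GTF2E1, the large subunit of TFIIE, the peak chr3:120741900-120742793 ranked 666 and 916, with folds of 31.7 and 23.3. It shares this promoter with RABL3, which is transcribed in the opposite direction. The untreated summit fell inside the SBS site, 6 bp from its middle.

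BDP1, a subunit of TFIIIB, had its peak at chr5:71455436-71456160, with rank 869 and fold 31.6 untreated and rank 1321 and fold 16.4 with dTAG-V1. The untreated summit was 24 bp upstream of the TSS and 15 bp from the middle of the SBS site. TAF6, a histone-fold subunit of TFIID, had its peak at chr7:100119207-100120473, with ranks 889 and 1214 and folds 29.1 and 18.1. The summit of both lists fell on the same base, inside the SBS site and 8 bp from its middle. This base was 744 bp upstream of the main TSS of TAF6, in the first exon of CNPY4. A separate CTCF match in the same region lay 742 bp from the summit, at a TSS of TAF6.

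TAF12, another histone-fold subunit of TFIID, had 2 regions. The stronger, chr1:28648088-28648996, ranked 950 untreated (fold 22.4) and 367 with dTAG-V1 (fold 23.8). It lay 141 bp upstream of an alternative start and 5365 bp upstream of the main one, with an SBS site 63 bp from the summit. The weaker, chr1:28642632-28643432, stood 269 bp upstream of the main start without an SBS site. It ranked 5212 untreated and 28060 with dTAG-V1, and its fold enrichment was 3.6 and 1.89.

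GTF3C2, a subunit of TFIIIC, had its peak at chr2:27356489-27357310, with ranks 1181 and 1154 and folds 27.3 and 19.8. The summit was on the same base in both lists, 20 bp downstream of a TSS and 29 bp from the SBS site. TAF8, which joins TAF10 in TFIID, shares its promoter with CCND3. Its peak at chr6:42050168-42051006 ranked 1220 and 1131, with folds 26.1 and 19.3, and the summit was 3 bp downstream of the TSS. GTF2F1, the large subunit of TFIIF, had its peak at chr19:6392978-6393902, with ranks 1823 and 1668 and folds 20.7 and 13.7. The SBS site there was 17 bp from the untreated summit.

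These 9 regions made up all untreated member regions above the 90th score percentile, and each held an SBS site with match probability under 1e-06. Of all untreated promoter regions above that percentile, 78.0% held such a site. Of the 36 member regions at or below it, 1 did (2.78%), against 11.1% of all promoter regions there. That region, at TAF6L, ranked 9220, and its site was 175 bp from the summit. The motif matrices were learned from peaks of these lists on odd autosomes, so the link between motif and peak is not independent of them.

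**Figure D3:**
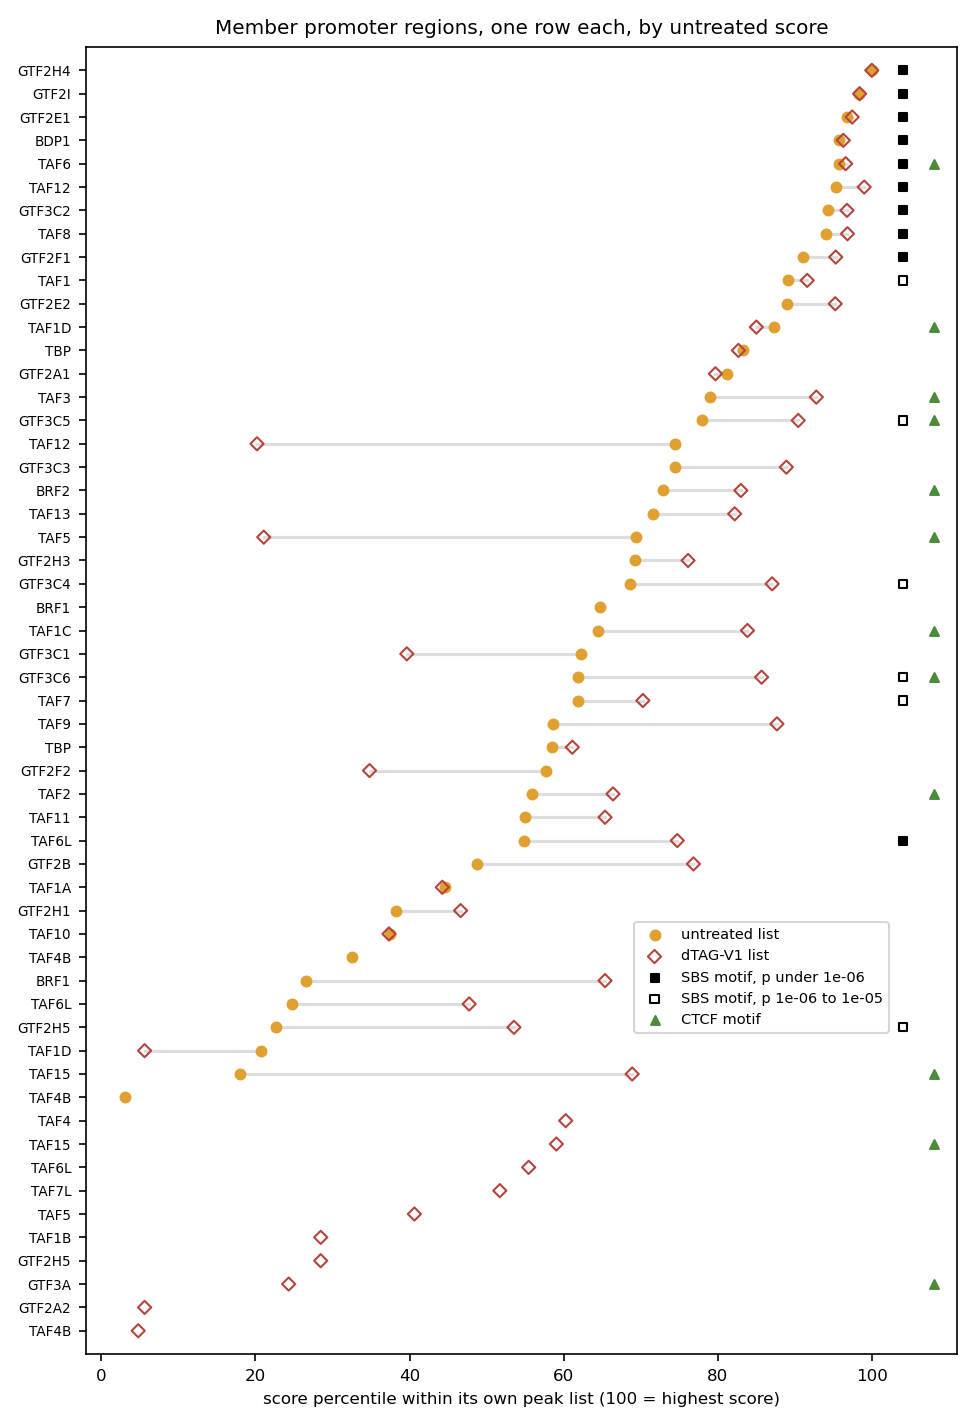
Score percentile (horizontal axis) of each member region within the untreated list (filled circles) and the dTAG-V1 list (open diamonds), 1 row per region named by its gene, with SBS and CTCF motifs marked at the right. The 9 regions above the 90th untreated percentile all carry an SBS motif with match probability under 1e-06, and none of the 13 regions found in 1 list only carries an SBS motif.

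The tenth region by untreated score was that of TAF1, the largest TFIID subunit, at chrX:71365690-71366409. It ranked 2236 untreated (fold 17.2) and 2971 with dTAG-V1 (fold 6.5), and its SBS site was weaker (match probability 8.2e-06) and 107 bp from the summit. Read on the opposite strand, this site contains ACTTCCGG, letters known from ETS factors, so the match need not be an SBS site. Directly below came GTF2E2, the small subunit of TFIIE, with ranks 2268 and 1691, folds of 18.1 and 12.5, and no SBS or CTCF match.

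Counted at a match probability of 1e-05, an SBS site stood in 16 of the 42 member regions in both lists (38.1%), against 46.7% of all such promoter regions. It stood in 0 of 3 regions of the untreated list only (interval up to 56.1%, background 43.6%) and 0 of 10 of the dTAG-V1 list only (interval up to 27.8%, background 11.5%). Counted by gene, 16 of 66 members (24.2%) had a promoter region with an SBS site, and 22.5% of protein-coding genes did. Besides the regions described, they were those of GTF3C4, GTF3C5, GTF3C6, TAF7 and GTF2H5. In the 10 regions with a site under 1e-06, the best site lay within 100 bp of the untreated summit in 9 (59.6 to 98.2%). In the 6 with a weaker site, it did so in 2 (9.68 to 70.0%), at GTF3C5 (85 bp) and GTF2H5 (18 bp). These intervals overlap, and the same count over all promoter regions is not given. By factor, SBS sites were found at 5 of 14 TFIID genes, 4 of 6 TFIIIC genes and 2 of 6 TFIIH genes, and at none of the 4 SL1 genes. These are small counts, to be read beside the 22.5% of all protein-coding genes. Among TFIIIC genes only GTF3C2 had a site under 1e-06. The sites of GTF3C4, GTF3C6 and TAF7 lay 457, 306 and 510 bp from the untreated summit.

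Among shared member regions, those with an SBS site had a median untreated percentile of 92.6 (n = 16) and those without 60.4 (n = 26). Over all shared promoter regions the medians were 88.6 and 49.2. In the dTAG-V1 list the member medians were 95.8 and 67.6. The percentile was higher in the dTAG-V1 list than in the untreated list at 31 of 42 shared member regions (73.8%), and at 72.6% of all shared promoter regions, so this count was near that of promoters in general.

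**Figure D4:**
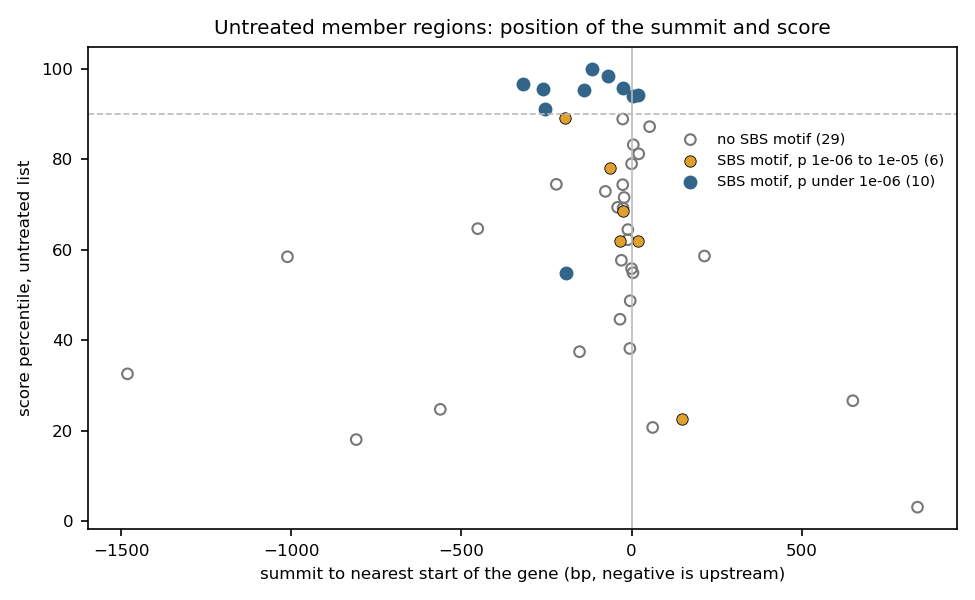
Untreated score percentile (vertical axis) against the distance of the summit from the nearest TSS of the gene in bp (horizontal axis, negative is upstream) for the 45 untreated member regions, with filled blue points for an SBS site with match probability under 1e-06. The dashed line marks the 90th percentile, above which all 9 regions are blue and lie from 319 bp upstream to 20 bp downstream of a TSS.

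The summits of untreated member peaks were a median of 53 bp from the nearest TSS of the gene. Of the 42 shared regions, 27 had a summit within 100 bp of a TSS (64.3%, 49.2 to 77.0), as did 50.8% of all shared promoter regions. Of the 13 regions found in 1 list only, 1 did (7.69%, 1.37 to 33.3), and of all such promoter regions 19.0%, the same direction as among members. Between lists the summit moved by a median of 32 bp at shared member regions, and by 27 bp at all shared promoter regions. At the 9 highest regions it moved by 0 to 13 bp. The largest shift, 807 bp, was at GTF3C1, the largest TFIIIC subunit, whose peaks had folds of 4.91 and 3.19. Shifts of 267 bp at TAF6L and 219 bp at TAF5 followed, also at regions with folds under 6.

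TBP, the subunit that binds the TATA box and serves all the polymerases, had a peak at its start and another one upstream. The first, chr6:170553771-170554576, ranked 3429 untreated (fold 7.97) and 6091 with dTAG-V1 (fold 3.77), with the summit 5 bp downstream of a TSS. The other, chr6:170552867-170553580, lay in the first exon of PSMB1, a proteasome gene transcribed away from TBP, 1011 bp upstream of a TBP start. It ranked 8478 and 13683, with folds of 3.25 and 2.92. Neither held an SBS or CTCF site.

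GTF2B had its peak at chr1:88891444-88891887, with ranks 10461 and 8164 and folds 3.3 and 3.83, and no motif of either kind. BRF2, the TFIIIB subunit used at the U6 snRNA type of promoter, ranked 5527 and 6001, with folds of 6.28 and 5.15. A CTCF match lay 6 bp from its summit. BRF1, its counterpart at tRNA genes, had a region in both lists at chr14:105299523-105300068, in a BRF1 intron 1183 bp downstream of the main start. It ranked 14958 (fold 2.94) and 12111 (fold 4.07).

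A different BRF1 region, chr14:105301581-105302030, was called in the untreated list only, with rank 7211 and fold 5.1. It lay 452 bp upstream of a BRF1 start, in introns of BRF1 and of the divergent PACS2. The other 2 regions of the untreated list only were at TAF4B, a gonad-enriched variant of TAF4. They were chr18:26224851-26225067, 1481 bp upstream of a start, with rank 13742 and fold 2.63, and chr18:26227637-26227992, 840 bp downstream of one, with rank 19757 and fold 1.98. At TAF4B the dTAG-V1 list instead had a peak at chr18:26226114-26226563, 38 bp downstream of a start, with rank 33492 and fold 1.92. All 3 TAF4B regions are in the lower part of their lists.

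Of the 10 regions of the dTAG-V1 list only, that of TAF4 had the highest score. It lay in a TAF4 intron at chr20:62010868-62011173, with rank 13903 and fold 3.86. An internal start of TAF4 was 894 bp away, whereas the main start was 54854 bp away. Next came TAF15, where chr17:35849284-35849942 ranked 14422 with a fold of 3.27, 589 bp downstream of an internal start and 40179 bp downstream of the main one. Then followed chr11:62769810-62770230 at TAF6L, 1424 bp upstream of a start, with rank 15685 and fold 3.32. TAF7L, an X-linked variant of TAF7, had chrX:101287265-101287853 with rank 17000 and fold 3.11. This region lay 224 bp downstream of an alternative start and 3753 bp downstream of the main one.

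The TAF5 region, chr10:103368637-103369010, lay 743 bp inside the gene, with rank 20890 and fold 2.88. TAF1B at chr2:9842935-9843322 and GTF2H5 at chr6:158167461-158167857 shared rank 25158, with folds of 2.83 and 2.44. GTF3A, the zinc finger protein that starts 5S rRNA transcription, had chr13:27425927-27426358 with rank 26498 and fold 2.72, 747 bp downstream of an alternative start and 1539 bp downstream of the main one. The lowest, at GTF2A2 and TAF4B, had folds of 2.37 and 1.92. Of these 10 regions, 6 were within the promoter window of a main start (31.3 to 83.2%). Of the 42 regions in both lists, 39 were (81.0 to 97.5%). The same count over all promoter regions is not given, so this is not shown to be particular to the members.

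CTCF motifs were found in 10 of the 42 member regions in both lists (background 23.2%), 0 of 3 of the untreated list only (background 9.20%) and 2 of 10 of the dTAG-V1 list only (background 24.6%). By gene, 11 of 66 members had one (16.7%), and 13.6% of protein-coding genes did. The 2 sites at dTAG-V1 regions are shown with the site in capitals. At a match probability of 1e-05 they are the only motif matches of either kind in the regions found in 1 list only.
TAF15: gatggCCACTAGGGGGCAAaattg
GTF3A: taagaCCGCAAGAGGGAGCtgggc
The TAF15 stretch is at chr17:35849665-35849688 on the plus strand, in the first exon of a TAF15 transcript and 14 bp from the summit, with a match probability of 1.7e-07. The GTF3A stretch is at chr13:27426014-27426037 on the minus strand, in the first exon of a GTF3A transcript and 132 bp from the summit, with a match probability of 1.9e-06. Whether CTCF occupied these sites was not analysed here, and with so few regions the shares have wide intervals.

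A match to the CTCF matrix need not be a CTCF site. The matches at TAF5 and GTF3C6 contain the letters AAGATGGCG, known from the YY1 motif.
TAF5: ctcagCCGCAAGATGGCGGcgctg
GTF3C6: cccgtACTCAAGATGGCGGctccg
The TAF5 stretch is at chr10:103367978-103368001 and that of GTF3C6 at chr6:110958703-110958726, both on the plus strand and 0 and 9 bp from a TSS. On either strand, these letters occurred in 6 of the 42 member regions in both lists (14.3%) and in 6.35% of all promoter regions in both lists. The letters ACTTCCGG, known from ETS factors, occurred in 13 of the 42 (31.0%, 19.1 to 46.0) and in 12.7% of all promoter regions in both lists. Of 28 Mediator regions in both lists, 7 held the ETS letters (12.7 to 43.4%) and 5 the YY1 letters (7.88 to 35.6%). Of 25 such RNA polymerase subunit regions, 5 (8.86 to 39.1%) and 2 (2.22 to 25.0%) did. These intervals include the member shares, so neither count is shown to be particular to the members. The ETS letters were in 4 of the 16 member regions with an SBS site and in 9 of the 26 without. Over all promoter regions in both lists, the shares were alike, 12.8% with an SBS site and 12.6% without. The 4 were those of TAF1, TAF7, GTF3C2 and GTF3C5. Among the 9 were TAF13, GTF2H3, TAF1C, TAF1A, GTF2H1 and BRF2. The YY1 and ETS counts are matches of letters in regions of unequal length, and binding of these factors was not measured.

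At 16 of the 55 member regions, the member TSS nearest the summit lay within 1 kb of a protein-coding TSS on the opposite strand. The peaks of these regions cannot be given to the member alone. The same count over all promoter regions is not given. The partners included RABL3 for GTF2E1, CNPY4 for TAF6, CCND3 for TAF8, PSMB1 for TBP, EIF2B1 for GTF2H3, DDX31 for GTF3C4 and KATNIP for GTF3C1. TAF9, which shares its start region with AK6, faces RAD17. At TAF1D, the region with the higher rank (2612 untreated) was at the start of the Mediator gene MED17, 42843 bp upstream of the main TAF1D start and next to the start of a longer TAF1D transcript. The region at the main TAF1D start ranked 16080, with folds of 2.37 untreated and 1.91 with dTAG-V1. By main TSS, 11 of the 39 genes with peaks in both lists had such a partner (28.2%, 16.5 to 43.8), against 25.0% of protein-coding genes with peaks in both lists.

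Promoter sequence was also read without regard to peaks, from RefSeq (GRCh38.p14) stretches of 250 bases before to 50 after each start, which matched 57 of the 66 members by symbol. An SBS match was in 11 (19.3%, 11.1 to 31.3), against 24.8% of 15345 protein-coding genes, and a CTCF match in 8 (14.0%), against 14.2%. Among the 19 matched genes without a peak, TAF9B, TAF11L11 and TAF11L12 held an SBS match and TAF5L a CTCF match. The interval of the SBS share among members includes the share of all genes.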

How the data were processed

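ZNF143 ChIP-seq peaks were used as deposited, 1 list per condition. Per the methods, the authors aligned to hg38 (BWA), retained uniquely placed proper pairs without duplicates (SAMtools, Picard) and made narrow peak calls with MACS2 outside the blacklist. No control library is named. The methods also describe a rule on replicates, and whether it was applied to these lists is not known. The deposited score is the whole part of 10 times the −log10 q-value. The fold enrichment ratio and the −log10 q-value were also deposited by the authors, each on the scale of its own list. Depth is unknown.

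Peaks were assigned to GENCODE release 44 TSSs and merged at 1 bp or more. "Main" TSS means the transcript tagged canonical. The CTCF, SBS1 and SBS2 matrices were learned from merged peaks on odd autosomes (best site per peak at p 1e-06, 10 iterations, pseudocount 0.8), and hits were called at p 1e-05 with genome base frequencies. Motif search was tested on simulated sequence. Python 3.11.15, numpy 2.4.6, pandas 2.3.3, numba 0.67.0, pysam 0.24.0 and minimap2 2.31 (asm20 preset) were used. With 1 list per condition no test was run, and shares have Wilson intervals.

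Full values are given for the 10 regions with the highest untreated score, regions of 1 list only (up to 8 per class by score) and TBP, BRF1, BRF2, BDP1, GTF2B and GTF3A. Members and lists were chosen with earlier results of these data known. The counts of ETS and YY1 letters, near-identical copies and the split at the 90th percentile were added after the data had been seen. The TAF5 and GTF3C6 sites were chosen after their letters were seen. Alternatives were a stricter q-value, other promoter windows, summits in place of centres, a reciprocal overlap, other motif thresholds and ranks by fold enrichment. No column of per-sample values was left unused.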

Additional observations from a re-analysis of the deposited data

How the results depend on the processing

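Of 58 alternative values, 42 were labelled the same as those reported and 16 moved. Values labelled the same could still differ. Regions in both lists, for example, fell from 42 to 36 when peaks had to share 50% of each other. With promoters limited to 500 bp of a TSS, member regions of the untreated list only fell from 3 to 0 and those of the dTAG-V1 list only from 10 to 4, the share of untreated member peaks found with dTAG-V1 became 100%, and the median distance to a TSS became 34 bp. With canonical TSSs alone, there were 6 regions of the dTAG-V1 list only and the median distance was 81 bp. When peaks had to share 50% of each other, 9 regions were in the untreated list only, 16 in the dTAG-V1 list only, and 80.0% of untreated member peaks were shared. The number of regions with an SBS motif, 16, became 35 at p 5e-05, 10 at p 1e-06 and 1 with fixed consensus letters. That with a CTCF motif, 12, became 23, 4 and 2 under the same settings. When limited to 100 bp of a summit, these numbers became 11 (SBS) and 6 (CTCF). At p 5e-05 an SBS motif stood in 1 of 3 regions of the untreated list only (background 68.8%). For the dTAG-V1 list only, it stood in 3 of 10 regions (background 35.2%). The counts of genes with a peak ranged from 36 to 39 (untreated) and from 39 to 44 (dTAG-V1). Regions of 1 list only and weak motif matches thus rest on these settings. No replicate could be left out because the lists hold no value per replicate. No paired analysis was possible because each condition has 1 list and no test was made. Depth is unknown, and a missing peak does not show that a promoter is unbound.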
